A study of Mus musculus with 24 samples.

Results

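The genes described here are 46 genes of the cell cycle and of DNA replication, measured by RNA sequencing in mouse eosinophils grown from bone marrow. They were taken by symbol from a set list, out of the 25746 genes counted in every library, and fall into 26 genes that work in S phase, when DNA is copied, and 20 that work in mitosis, when the copies are parted. All 46 were present in the count files, and all 46 passed the filter on low counts that left 11885 genes for testing. The rule that chose them used no measured value, though the list was set with earlier results of these data known.

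The 24 libraries came from C57BL/6 bone marrow cells in 8 groups of 3. All cultures received 100 ng/ml of SCF (stem cell factor) plus 100 ng/ml of FLT3-L between day 0 and day 4, then 10 ng/ml of interleukin-5 (IL-5). On day 13 dead cells were removed by a kit, and the rest were kept overnight in IL-5 at 10 ng/ml, alone ("untreated") or with further cytokines. Wild-type cells (WT) had 4 groups: untreated, 20 ng/ml of GM-CSF (a myeloid growth factor), interleukin-10 (IL-10) at a dose the labels do not state, and GM-CSF with IL-10. Cells labelled CSF2ra-/-, which should lack the alpha chain of the GM-CSF receptor, and cells labelled Irf5-/-, which should lack the transcription factor IRF5, each came without and with GM-CSF. The sources used here do not state the donors' sex or age or how the replicates were obtained, beyond calling them triplicates, so p-values measure only the spread between these libraries. Replicate numbers below follow the order of deposit, and the labels state no pairing of libraries between groups. Some same-numbered libraries were nonetheless alike: the Y-linked sums of the libraries labelled Irf5-/- were 178, 12.1 and 39.3 CPM untreated, and in the GM-CSF group 163, 13.2 and 44 CPM. Whether these share a donor or culture was not tested, and no fit paired them.

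Before a cell copies its DNA, the Mcm2 to Mcm7 ring is loaded onto origins with the help of Cdc6 and Cdt1, and Cdc45 and the GINS proteins turn it into the helicase that opens the fork. Cyclin E with its kinase starts S phase, and the E2F factors switch on most genes of this stage. Later, cyclin B with Cdk1 drives entry into mitosis, Aurora and Polo-like kinases build the spindle, and Cdc20 with the anaphase-promoting complex ends mitosis. Genes of mitosis are read mainly through CCAAT boxes and the cell cycle genes homology region (CHR), where the MuvB complexes bind. Mature eosinophils of blood and tissue are regarded as non-dividing, while the precursors that IL-5 cultures start from divide.

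The promoter windows below are shown because the S phase and the mitotic members differ in these short elements. RefSeq windows on GRCm38.p6, from 250 bases before to 50 bases after a start site, were found for 21 of the 26 S phase members (23 windows) and 16 of the 20 mitotic members (16 windows). Gins1, Gins2, Pole, Mcm4, Ccne2, Ccna2, Aurkb, Cdc25c and Kif20a had no window. The letters TTCCCGC, the related form TTCGCGC, the further form TTGCCGC and the last form TTGGCGC, all versions of the E2F element, were searched on both strands, where matches of the letters can overlap each other. They occurred in 65.2% of the S phase windows, 18.8% of the mitotic windows and 9.57% of all 32851 windows. The CHR was searched as TTTGAA on both strands and as TTTAAA, whose letters read alike on both, and CCAAT on both strands. These occurred in 30.4%, 87.5% and 27.6% of those windows, and CCAAT in 69.6%, 87.5% and 37.4%. A match describes these letters and was not tested as a binding site. In the Mcm6 window (chr1:128359656-128359955, minus strand) 5 E2F matches, some overlapping, are in capitals, and in the Mcm7 window (chr5:138171834-138172133, minus strand) 3 are:
Mcm6: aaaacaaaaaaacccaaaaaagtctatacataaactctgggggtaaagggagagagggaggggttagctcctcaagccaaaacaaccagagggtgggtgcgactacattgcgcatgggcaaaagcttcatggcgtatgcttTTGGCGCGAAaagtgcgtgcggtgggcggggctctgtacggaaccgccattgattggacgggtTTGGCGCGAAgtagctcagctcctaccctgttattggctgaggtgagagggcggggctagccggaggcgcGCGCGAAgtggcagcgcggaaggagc
Mcm7: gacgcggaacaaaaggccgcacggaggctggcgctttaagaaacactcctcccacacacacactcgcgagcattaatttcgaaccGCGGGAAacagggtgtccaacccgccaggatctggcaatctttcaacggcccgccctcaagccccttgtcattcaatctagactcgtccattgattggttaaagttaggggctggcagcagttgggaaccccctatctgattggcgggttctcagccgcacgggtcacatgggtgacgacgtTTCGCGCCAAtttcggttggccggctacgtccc
For the mitotic members the capitals mark the CHR letters, 2 matches each in Cdk1 (chr10:69352863-69353162, minus strand), Ccnb2 (chr9:70421505-70421804, minus strand) and Cenpa (chr5:30666636-30666935, plus strand):
Cdk1: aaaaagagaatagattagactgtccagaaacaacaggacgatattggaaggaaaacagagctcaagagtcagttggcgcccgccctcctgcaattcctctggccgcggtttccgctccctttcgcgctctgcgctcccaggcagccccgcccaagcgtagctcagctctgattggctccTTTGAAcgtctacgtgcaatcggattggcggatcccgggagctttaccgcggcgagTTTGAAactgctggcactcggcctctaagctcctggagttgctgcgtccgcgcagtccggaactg
Ccnb2: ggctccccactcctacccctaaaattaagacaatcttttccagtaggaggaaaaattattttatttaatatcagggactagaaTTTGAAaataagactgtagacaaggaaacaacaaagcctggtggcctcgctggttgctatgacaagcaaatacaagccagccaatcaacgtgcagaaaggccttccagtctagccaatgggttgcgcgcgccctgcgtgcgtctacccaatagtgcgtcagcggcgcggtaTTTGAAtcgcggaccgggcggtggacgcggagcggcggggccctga
Cenpa: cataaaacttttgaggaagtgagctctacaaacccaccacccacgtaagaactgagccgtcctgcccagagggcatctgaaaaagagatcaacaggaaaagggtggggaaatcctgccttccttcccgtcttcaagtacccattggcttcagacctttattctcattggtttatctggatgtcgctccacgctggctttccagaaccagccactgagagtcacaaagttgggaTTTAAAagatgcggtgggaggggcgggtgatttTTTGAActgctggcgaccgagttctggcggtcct

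Several libraries stood apart in ways that touch these genes. Total counts per library ran from 6222979 to 18709153, and the 10 eosinophil markers, among them Epx and Prg2, were all above 1 CPM (counts scaled to library size) on average in every group. Irf5 went against its label: it was read at 1394 to 1999 CPM where the label says Irf5-/- (6 libraries) and at 28.3 to 94.3 CPM elsewhere (18), so these are called the libraries labelled Irf5-/- throughout. Csf2ra was at 28.5 to 39.8 CPM in the 6 CSF2ra-/- libraries and 41.8 to 83.8 CPM in the other 18. The sum of 4 Y-linked genes (Ddx3y, Eif2s3y, Kdm5d and Uty) split the 12 wild-type libraries into 6 at 171 to 182 CPM and 6 at 47 to 60.9 CPM, with 1 high library among the 3 untreated, 2 with GM-CSF, 1 with IL-10 and 2 with both. All 6 CSF2ra-/- libraries were high, at 148 to 185 CPM. Untreated CSF2ra-/- replicate 1 had only 8637672 counts and tilted towards short transcripts: across genes, the Spearman correlation of its deviation from the mean with exon length was -0.39. Replicate 3 of that group (-0.36) and untreated replicate 2 labelled Irf5-/- (-0.39) tilted the same way.

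Levels are CPM after scaling by edgeR's trimmed mean of M values (TMM). Counts behind single values ran from 53 for Gins1 to 8898 for Top2a. Per kilobase of exon, and so comparable between genes, the highest S phase members over the 24 libraries were Rrm2 at 52 CPM per kb, Pcna at 47.3, Mcm3 at 33.8 and Mcm6 at 33.2. Among the mitotic members these were Ccnb2 at 52.6 CPM per kb, Top2a at 41.3, Mki67 at 31.9 and Cdc20 at 30.8. The lowest were Gins2 at 2.1 and Cdc25c at 1.87 CPM per kb. A gene's highest library lay 1.72 to 2.93 times above its lowest among S phase members and 1.73 to 3.01 times among mitotic members. In bulk RNA, fewer cycling cells and less of these RNAs per cycling cell cannot be told apart.

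**Figure D1:**
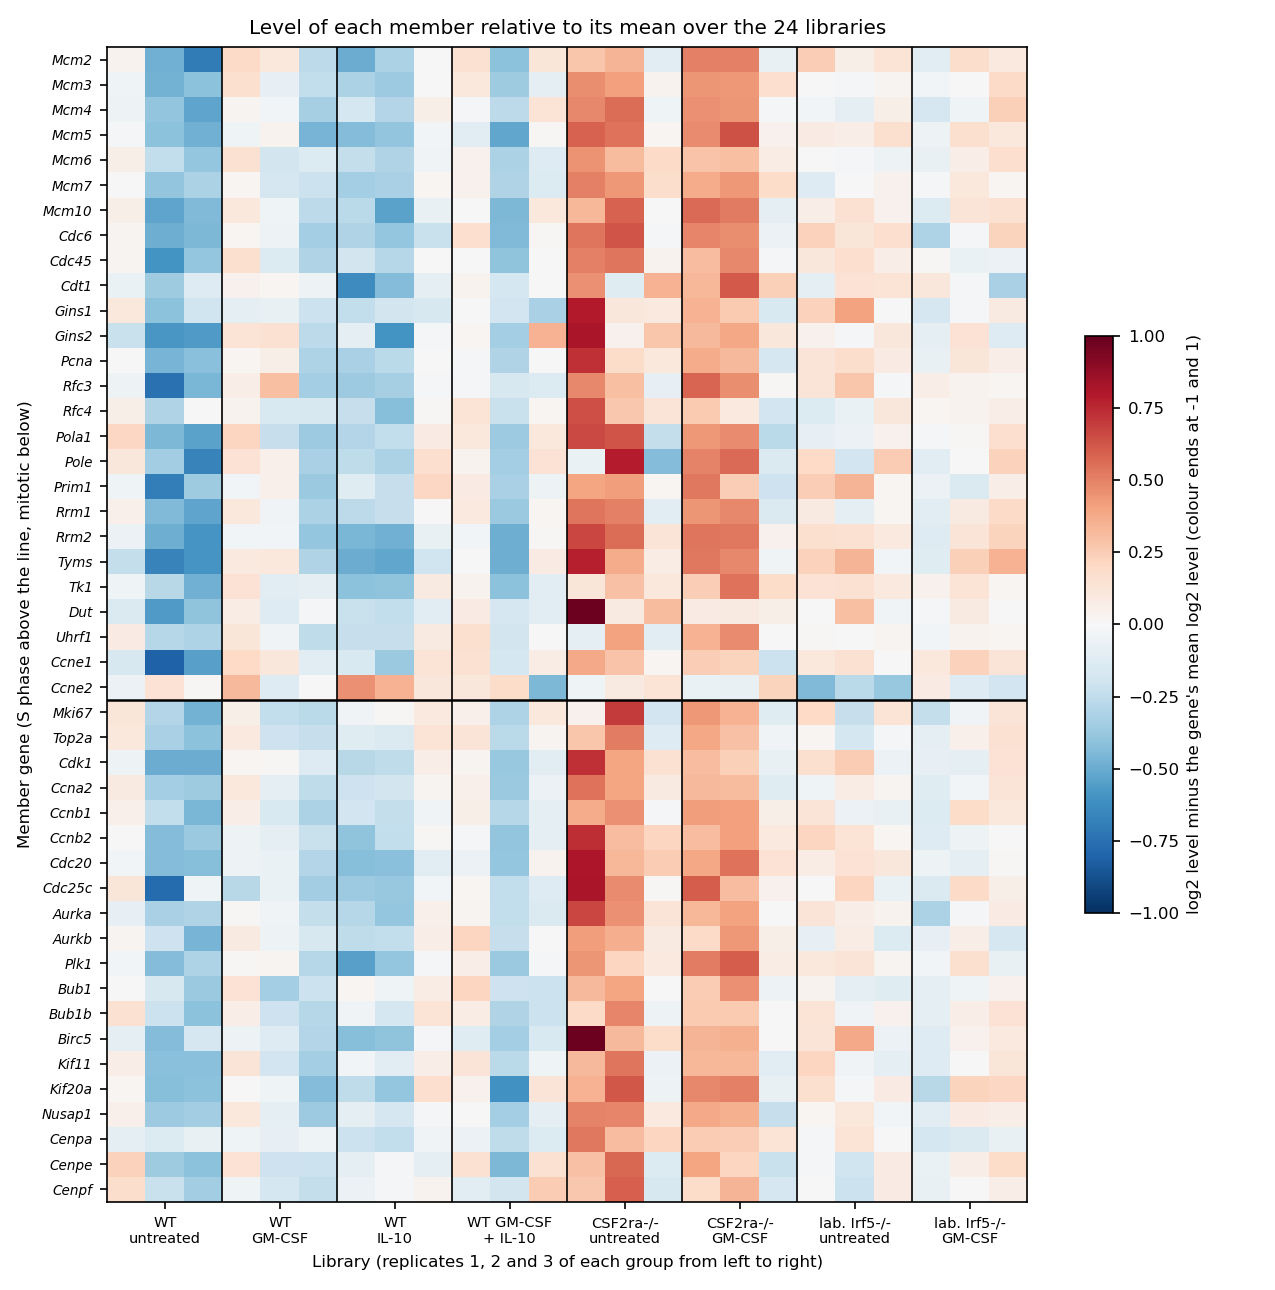
Level of each of the 46 members (rows) in each of the 24 libraries (columns), as log2 TMM-scaled CPM minus the gene's mean log2 level; red is above and blue below the mean. The CSF2ra-/- replicates 1 and 2 of both treatments are red in nearly all rows, wild-type untreated replicates 2 and 3 blue, and Ccne2 does not follow the other rows.

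The members moved together from library to library. Correlated over the 24 libraries with the sum of the other members of its phase, a gene had a median Pearson r of 0.9 among S phase and 0.88 among mitotic members, and 20 of 26 and 17 of 20 were above 0.8. These are descriptions over libraries that share groups and scaling. The exception was Ccne2, which encodes cyclin E2, at r = -0.33. It was read at 24.4 to 45.7 CPM, with its highest value in wild-type IL-10 replicate 1, and was singled out after its values were seen. For 25 of the 26 S phase and 20 of the 20 mitotic members the highest of the 24 libraries was replicate 1 or 2 of a CSF2ra-/- group, with Ccne2 as the exception. For 20 S phase and 14 mitotic members the lowest was wild-type untreated replicate 2 or 3.

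Summed over the 26 S phase members, the 3 untreated wild-type libraries stood at 1470, 1107 and 1091 CPM (1223 ± 214, mean ± SD, n = 3). With GM-CSF they were at 1557, 1429 and 1227 CPM (1404 ± 167), with IL-10 at 1201, 1183 and 1467 CPM (1284 ± 159) and with both cytokines at 1518, 1169 and 1453 CPM (1380 ± 186). These 4 wild-type groups overlapped. CSF2ra-/- libraries stood higher. Their sums were 2083, 1962 and 1532 CPM when untreated (1859 ± 289), while the GM-CSF group had 1944, 1989 and 1489 CPM (1807 ± 276). All 3 untreated CSF2ra-/- libraries were above all 3 untreated wild-type libraries, with a ratio of means of 1.52. With GM-CSF the third CSF2ra-/- library lay within the wild-type range. Untreated libraries labelled Irf5-/- lay between, at 1526, 1526 and 1525 CPM, and they were at 1409, 1551 and 1597 CPM with GM-CSF.

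The summed level of the 20 mitotic members was 1864, 1425 and 1371 CPM in untreated wild type (1553 ± 270, n = 3) and 2370, 2519 and 1778 CPM in untreated CSF2ra-/- (2222 ± 392), a ratio of means of 1.43. Here the groups overlapped, since wild-type replicate 1 lay above CSF2ra-/- replicate 3. With GM-CSF the wild-type sums were 1856, 1613 and 1506 CPM and the CSF2ra-/- sums 2301, 2278 and 1735 CPM, which also overlapped. Untreated libraries labelled Irf5-/- stood at 1906, 1758 and 1812 CPM. The S phase sum divided by the mitotic sum was 0.777 to 0.796 in untreated wild type and 0.815 to 0.886 with GM-CSF. It was 0.742 to 0.786 with IL-10 and 0.813 to 0.818 with both cytokines, so in wild type every library with GM-CSF lay above every library without it in this ratio. In CSF2ra-/- it was 0.779 to 0.879 untreated and 0.845 to 0.873 with GM-CSF, which overlapped. In libraries labelled Irf5-/- it was 0.801 to 0.868 untreated and 0.835 to 0.866 with GM-CSF, which overlapped as well. Whether the ratio responds differently between genotypes was not tested. The wild-type libraries also differed in their correlation with exon length. It was 0.22, 0.21 and -0.1 untreated and 0.29, 0.2 and 0.22 with IL-10. With GM-CSF it was 0.11, -0.05 and -0.11, and with both cytokines 0.03, 0 and 0.18. The part of length in the ratio was not tested. These ratios and sums are descriptions without a test.

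**Figure D2:**
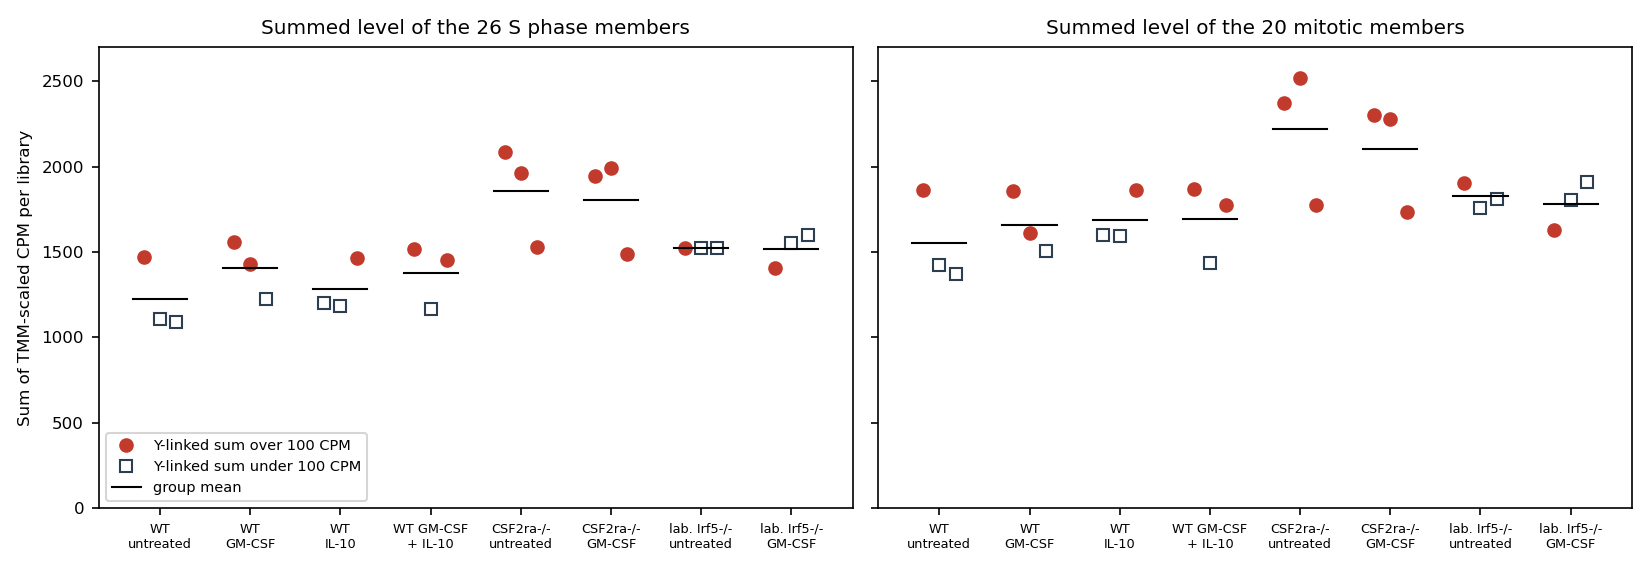
Sum of TMM-scaled CPM over the 26 S phase members (left) and the 20 mitotic members (right) in each library of the 8 groups, with group means as lines; filled red circles have a Y-linked sum over 100 CPM and open squares under it. The highest sums belong to replicates 1 and 2 of both CSF2ra-/- groups, and within each wild-type group the circles lie above the squares.

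The comparison of untreated CSF2ra-/- with untreated wild type held nearly all of the calls, meaning an adjusted p under 0.05 in edgeR's quasi-likelihood test over the 11885 genes. In CSF2ra-/-, 17 of the 26 S phase and 12 of the 20 mitotic members rose and none fell. The background was 10.8% of tested genes called, and 5.52% called higher. Median log2 fold changes were 0.61 for S phase and 0.51 for mitotic members, against 0 for all tested genes. At an unadjusted p under 0.05 the counts were 23 and 20, among 3313 tested genes. In 15 S phase and 10 mitotic members all 3 CSF2ra-/- libraries lay above all 3 wild-type libraries, as did 10.3% of tested genes.

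The number of calls depended on which libraries entered the fit. When edgeR was fitted to these 6 libraries alone, 0 members were called, with 22 S phase and 16 mitotic members at p under 0.05, a lowest adjusted p of 0.0653 among the members, and 1.75% of genes called; their median log2 fold changes were 0.63 and 0.52. Without CSF2ra-/- replicate 1, 3 S phase and 5 mitotic members were called (2.97% of genes). Without wild-type replicate 2 the counts were 3 and 5 (2.41%), without wild-type replicate 3 they were 6 and 6 (4.31%), without wild-type replicate 1, 21 and 19 (11.9%), and without CSF2ra-/- replicate 3, 22 and 20 (15.9%). Adding Y-linked RNA as a covariate left 12 and 7 calls (6.34%). DESeq2 called 18 and 16, and limma-voom 14 and 10. The share of all genes called by these 2 tools is not given here, so their counts have no background.

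Among the licensing genes, 6 of 8 rose in untreated CSF2ra-/-, where 10.8% of tested genes were called and 5.52% called higher. These shares are the background of the counts by role given next. Fitted to the groups compared alone, edgeR called 0 members. Mcm7, a subunit of the replicative helicase ring (chr5:138164583-138172422 on GRCm38), was at 113, 86.5 and 91.1 CPM in wild type and 161, 153 and 128 CPM in CSF2ra-/-, groups that did not overlap. Its log2 fold change was 0.60 ± 0.12 (SE), with an adjusted p of 0.00463 in edgeR. Mcm3 of the same ring was at 121, 89.9 and 93.8 CPM against 172, 166 and 128 CPM (0.61 ± 0.14, adjusted p = 0.0115), Mcm5 at 117, 89 and 84.9 against 178, 172 and 120 CPM (0.69 ± 0.18, adjusted p = 0.0185) and Mcm6 at 159, 129 and 117 against 209, 190 and 175 CPM (0.50 ± 0.12, adjusted p = 0.0134). In each of these, all 3 CSF2ra-/- libraries were above all 3 wild-type ones. Mcm2 did not pass: it was at 65.9, 46 and 39.5 CPM in wild type and 78, 81.3 and 59.9 CPM in CSF2ra-/-, groups that overlapped (0.53 ± 0.20, adjusted p = 0.0817). Mcm4 and Cdc6, which loads the ring, rose by 0.66 ± 0.17 and 0.68 ± 0.19 on the log2 scale, and Cdt1, its partner in loading, did not pass at 0.42 ± 0.15.

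Of the 4 genes that turn the loaded ring into an active fork, Cdc45, Gins2 and Mcm10 rose, with log2 fold changes of 0.67, 0.84 and 0.60, and Gins1 did not pass at 0.49 ± 0.18. At the fork, 3 of 6 rose, against 5.52% of tested genes called higher. Pcna, the sliding clamp of the polymerases (chr2:132249162-132253314), stood at 112, 80.9 and 83.3 CPM in wild type and 185, 127 and 120 CPM in CSF2ra-/-, groups that did not overlap (0.64 ± 0.17, adjusted p = 0.0184). The clamp loader subunit Rfc3 and the primase subunit Prim1 rose by 0.62 ± 0.19 and 0.61 ± 0.19, while the loader subunit Rfc4 and the polymerase genes Pola1 and Pole, at 0.42, 0.61 and 0.46, did not pass.

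Untreated, genes of deoxynucleotide supply had the highest median of the role groups at 0.83. Of these 5 genes 4 rose, against 5.52% of tested genes called higher. Rrm2, the regulated subunit of ribonucleotide reductase (chr12:24708241-24714146), was at 134, 99.8 and 93 CPM in wild type and 222, 206 and 153 CPM in CSF2ra-/-. The groups did not overlap, and the log2 fold change was 0.83 ± 0.18 (adjusted p = 0.00623). Dut, which removes dUTP, was at 36.9, 27.6 and 30.9 CPM against 80.8, 43.5 and 50.9 CPM (0.86 ± 0.16, adjusted p = 0.00216), the smallest adjusted p among the members in this comparison. CSF2ra-/- replicate 1 stood well above the other libraries of its group for this gene. Tyms, thymidylate synthase, was at 22.7, 16.9 and 17.8 CPM against 46, 34.6 and 28.3 CPM (0.91 ± 0.20, adjusted p = 0.00711), and Rrm1, the partner of Rrm2, rose by 0.62 ± 0.19. Thymidine kinase Tk1 did not pass at 0.43 ± 0.14. Dut and Rrm2 were among the 10 shortest members, whose values in untreated CSF2ra-/- replicate 1 are described below. With GM-CSF the median of these 5 genes was 0.36, below the licensing genes at 0.41 and the Cdk1 system at 0.40.

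The cyclin E genes differed from each other. Ccne1 was at 16, 10.2 and 12.3 CPM in untreated wild type and 23.3, 21.8 and 18.1 CPM in untreated CSF2ra-/-, with no overlap (0.70 ± 0.16, adjusted p = 0.0113). Ccne2 was at 32, 36.9 and 33.6 CPM against 32.3, 35.4 and 36.7 CPM (0.03 ± 0.15, adjusted p = 0.915), fully overlapping. Uhrf1, which keeps DNA methylation through replication, was at 89, 69.1 and 68.1 CPM against 78.7, 111 and 77.9 CPM and did not pass (0.25 ± 0.15, adjusted p = 0.286).

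Among mitotic genes, 4 of 5 members of the Cdk1 system rose in untreated CSF2ra-/-, against 5.52% of tested genes called higher. Cdk1, the kinase that drives entry into mitosis (chr10:69335146-69352938), was at 82.9, 60.8 and 60.9 CPM in wild type and 142, 113 and 95.3 CPM in CSF2ra-/-, with no overlap (0.77 ± 0.15, adjusted p = 0.00388). Its partner cyclin Ccnb2 was at 79.3, 58.5 and 60.9 CPM against 132, 97.8 and 91.6 CPM (0.69 ± 0.14, adjusted p = 0.0051), again with no overlap. Ccnb1 was at 51.5, 41.8 and 36.2 CPM against 64.3, 68.3 and 49 CPM, with wild-type replicate 1 above CSF2ra-/- replicate 3 (0.49 ± 0.15, adjusted p = 0.0382). Ccna2 rose by 0.54 ± 0.15, and the phosphatase gene Cdc25c did not pass at 0.63 ± 0.21 and a level of 5.25 to 15.8 CPM over all libraries.

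All 4 genes of the mitotic kinases and survivin rose, against 5.52% of tested genes called higher. Aurka, the centrosome kinase, was at 41.4, 35.1 and 35.6 CPM in wild type and 69.7, 60.1 and 48 CPM in CSF2ra-/- (0.66 ± 0.14, adjusted p = 0.00711). Birc5, which encodes survivin, was at 54.9, 43.4 and 52.3 CPM against 116, 73.4 and 66.5 CPM (0.76 ± 0.17, adjusted p = 0.00931), with CSF2ra-/- replicate 1 far above the rest. Neither gene overlapped between the groups. Aurkb and Plk1 each rose by 0.50, with SEs of 0.14 and 0.16.

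Of the checkpoint, kinetochore and spindle genes, 4 of 9 rose, against 5.52% of tested genes called higher. Cdc20, the activator of the anaphase-promoting complex, was at 55.1, 41.7 and 41.8 CPM in wild type and 98.3, 70.9 and 66.9 CPM in CSF2ra-/- (0.76 ± 0.15, adjusted p = 0.00325). Cenpa, the histone of centromeres, was at 89.8, 86.9 and 90.9 CPM against 138, 118 and 111 CPM (0.45 ± 0.09, adjusted p = 0.003). It had a smaller fold change than Cdc20 and a tighter spread within groups, and neither gene overlapped. The spindle genes Kif11 and Nusap1 rose by 0.52 and 0.58, and Kif20a, Bub1, Bub1b, Cenpe and Cenpf did not pass at 0.37 to 0.59.

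Mki67 and Top2a, both in wide use as markers of proliferation, did not pass. Mki67, which coats mitotic chromosomes, was at 344, 258 and 227 CPM in wild type and 326, 514 and 276 CPM in CSF2ra-/-, overlapping groups in which replicate 2 stood apart (0.43 ± 0.20, adjusted p = 0.163). Top2a, which untangles DNA, was at 395, 293 and 276 CPM against 446, 524 and 336 CPM, also overlapping (0.44 ± 0.16, adjusted p = 0.0764).

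**Figure D3:**
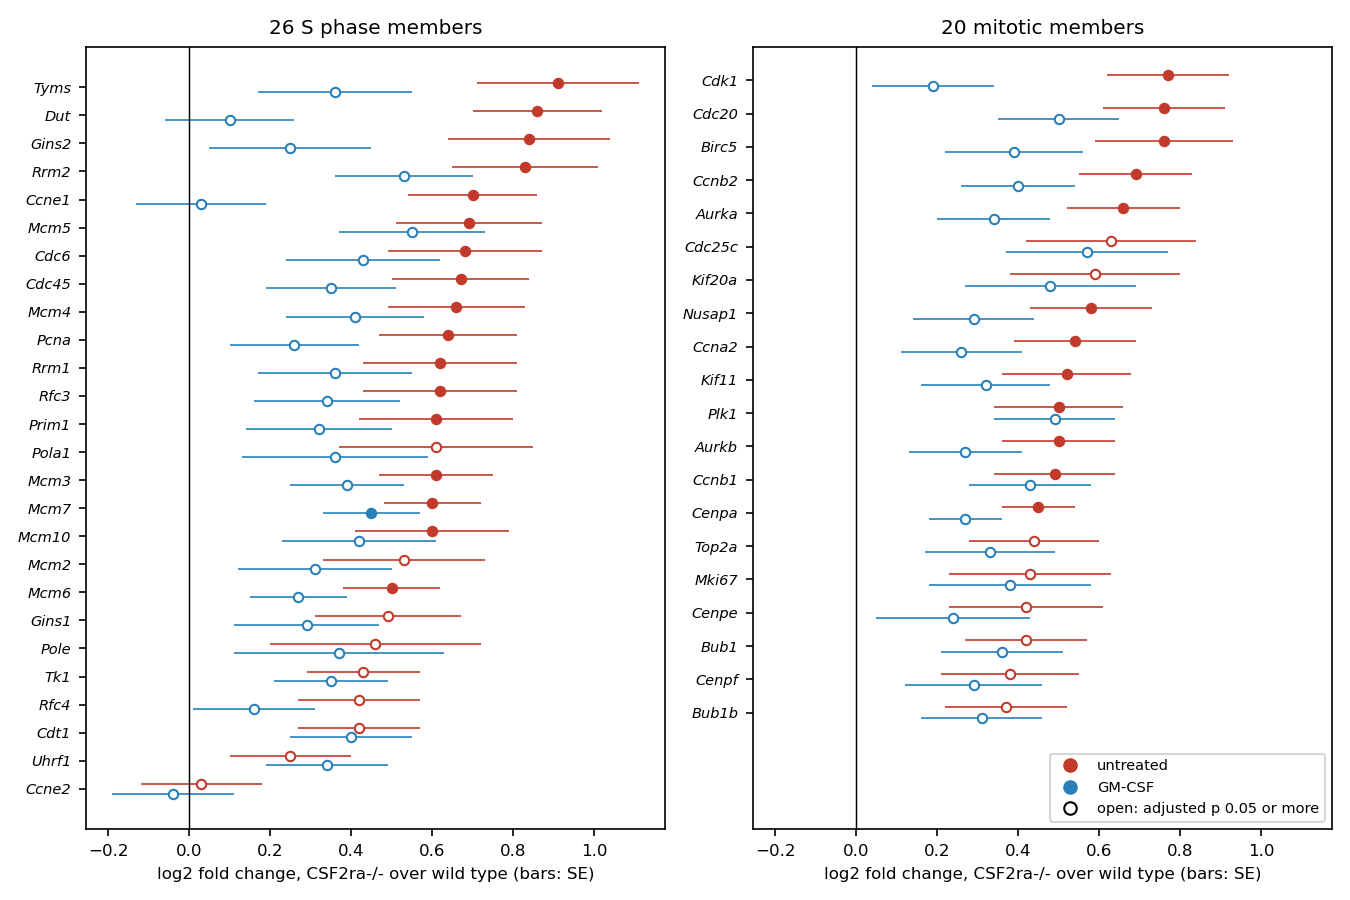
Log2 fold change (points) with its standard error (bars) of each member in CSF2ra-/- over wild type, untreated in red and with GM-CSF in blue; filled points have an edgeR adjusted p under 0.05. Untreated, all 46 members lie to the right of 0; with GM-CSF all but Ccne2 do, and 45 of 46 lie further right untreated.

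Transcript length moved with part of these values. In untreated CSF2ra-/- replicate 1, against the other 5 CSF2ra-/- libraries, the 10 shortest members (1.52 to 2.77 kb of exon, such as Ccnb2, Cdc20, Dut and Aurka) had a median log2 ratio of 0.47. The 10 longest (6.96 to 15.4 kb, such as Mcm2, Top2a and Mki67) had 0.07. Its eosinophil marker sum was 112315 CPM, while the other 23 libraries had at most 94564 CPM. The part of length in the calls was not tested beyond leaving that library out. Without it the median log2 fold changes were 0.54 for S phase and 0.44 for mitotic members, and 3 and 5 were called. That fit still held CSF2ra-/- replicates 2 and 3, with length correlations of 0.26 and -0.36. Untreated wild type was at 0.22, 0.21 and -0.1, so the fit did not remove differences in length tilt.

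The Y-linked level also moved with the members in wild type. The 6 wild-type libraries high in Y-linked RNA had S phase sums of 1429 to 1557 CPM, and the 6 low ones 1091 to 1227 CPM, with no overlap. Their mitotic sums were 1613 to 1866 and 1371 to 1597 CPM, again apart. For 17 of 26 S phase and 11 of 20 mitotic members all 6 high libraries were above all 6 low ones, as they were for 4.74% of tested genes. The libraries labelled Irf5-/- showed no such order, with 1409 and 1526 CPM in the 2 high and 1525 to 1597 CPM in the 4 low ones. When only libraries over 100 CPM of Y-linked RNA were used, a choice made after seeing the data, untreated CSF2ra-/- was set against 1 wild-type library. No member was then called by edgeR (2 S phase and 3 mitotic at p under 0.05, 0.281% of genes called), and the medians were 0.31 and 0.27. What else differs between these cultures was not tested.

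**Figure D4:**
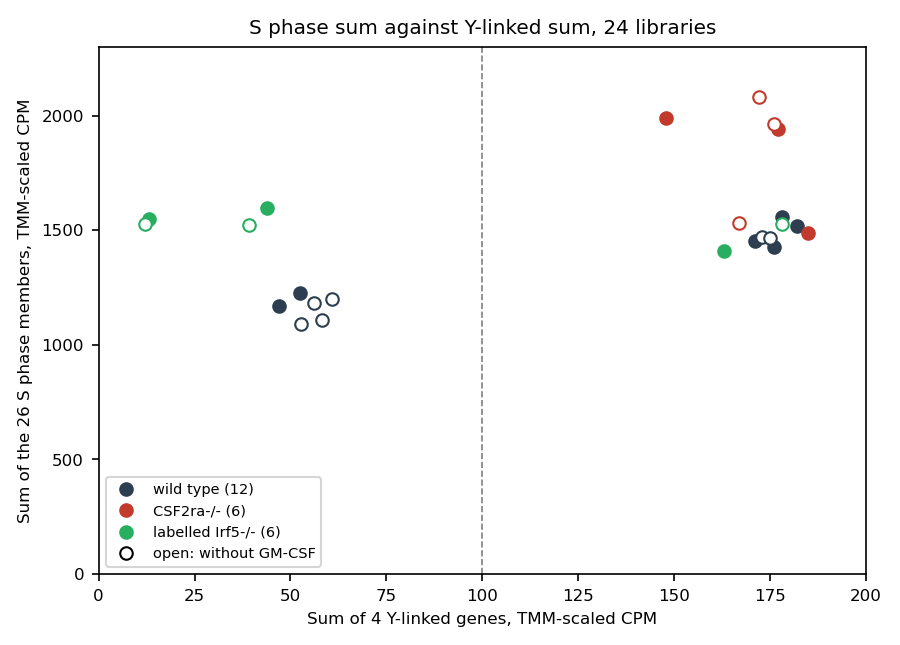
Sum of the 26 S phase members against the sum of 4 Y-linked genes, both in TMM-scaled CPM, for each of the 24 libraries, coloured by genotype, with libraries without GM-CSF drawn open. The wild-type libraries form 2 separate clusters, 4 of the 6 CSF2ra-/- libraries lie above all others, and the libraries labelled Irf5-/- do not follow the wild-type order.

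With GM-CSF present in both genotypes, 1 of 46 members was called between CSF2ra-/- and wild type, where 3.79% of tested genes were called in either direction. That was Mcm7, higher in CSF2ra-/-. Mcm7 was at 115, 101 and 98 CPM in wild type and 147, 153 and 129 CPM in CSF2ra-/-, with no overlap (0.45 ± 0.12, adjusted p = 0.0383 in edgeR). Cdc20 came next and did not pass, at 54.2, 53.8 and 45.8 against 73.6, 82 and 62.1 CPM (0.50 ± 0.15, adjusted p = 0.0589). DESeq2 called 1 S phase and 3 mitotic members. Leaving out CSF2ra-/- replicate 3 gave 3 and 3 calls, and leaving out wild-type replicate 2 or 3 or CSF2ra-/- replicate 1 or 2 gave 0 S phase calls. For DESeq2 and these fits the share of all genes called is not given here, so the counts have no background. Medians were 0.35 for S phase and 0.33 for mitotic members. At p under 0.05 there were 12 and 12, among 1695 of the 11885 tested genes, and in 6 and 6 all CSF2ra-/- libraries lay above all wild-type ones, against 8.07% of tested genes. Ccne1 had a log2 fold change near 0 whose sign turned in some alternatives, at 20.5, 19.4 and 16.6 CPM against 21.2, 20.9 and 15.4 CPM (0.03 ± 0.16). Dut was at 42.9, 37.4 and 40.4 CPM against 43.2, 43.4 and 42.5 CPM (0.10 ± 0.16), Cdk1 at 86.9, 86.4 and 78.6 against 106, 101 and 81.4 CPM (0.19 ± 0.15) and Rrm2 at 137, 137 and 107 against 203, 202 and 144 CPM (0.53 ± 0.17).

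No member was called for GM-CSF against its own control in any genotype. In wild type its median log2 effect was 0.21 on S phase and 0.10 on mitotic members; 0 were called by edgeR, DESeq2 or limma-voom, 5 S phase and 0 mitotic members had p under 0.05 (745 of the 11885 tested genes did), and 0.555% of genes were called. High Y-linked RNA was found in 1 of the 3 untreated and 2 of the 3 GM-CSF libraries. Among these alone, the log2 ratio of the S phase sums was 0.02, against 0.20 with all libraries, and that of the mitotic sums turned from 0.09 to -0.10. The member with the smallest p was Ccne1, at 16, 10.2 and 12.3 CPM without and 20.5, 19.4 and 16.6 CPM under GM-CSF, with no overlap (0.54 ± 0.16, adjusted p = 0.22). Tyms followed among the genes given in full, at 22.7, 16.9 and 17.8 against 28.7, 28.9 and 21.8 CPM (0.47 ± 0.20, adjusted p = 0.656). In 3 S phase members all GM-CSF libraries were above all untreated ones, against 6.9% of tested genes. With IL-10 present the medians were 0.11 and 0.03 (2 and 0 members at p under 0.05, 0.858% of genes called). In CSF2ra-/- they were -0.06 and -0.11 (1 and 0, with 0% of genes called), and in libraries labelled Irf5-/- they were -0.04 and -0.02 (0 and 0, with 0.353% called). None of these had a called member by edgeR, DESeq2 or limma-voom.

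The GM-CSF effects were compared between genotypes by the interaction term. For CSF2ra-/- minus wild type the medians were -0.25 for S phase and -0.18 for mitotic members, with 2 and 1 at p under 0.05, 0 called by any of the 3 tools and 0.0589% of genes called. The members with the smallest p were Dut at -0.77 ± 0.22 (adjusted p = 0.547 in edgeR) and Ccne1 at -0.67 ± 0.23 (adjusted p = 0.796). For the libraries labelled Irf5-/- minus wild type the medians were -0.28 and -0.13, and for GM-CSF with IL-10 minus without they were -0.12 and -0.07. In both, 0 members were called by the 3 tools, 0 had p under 0.05 and 0% of genes were called by edgeR.

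IL-10 called no member. Alone, it gave medians of 0.08 for S phase and 0.07 for mitotic members, and on top of GM-CSF -0.04 and 0.02. Neither comparison had a call by edgeR, DESeq2 or limma-voom, 1 member (Ccne1, 0.35 ± 0.16, adjusted p = 0.999) had p under 0.05 with IL-10 alone and 0 with GM-CSF present, and 0.0505% of genes were called in each. Ccne2, the member apart from the rest, was highest with IL-10 alone.

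The untreated libraries labelled Irf5-/- had higher values than untreated wild type for many S phase members without passing the test. Medians were 0.37 for S phase and 0.24 for mitotic members, 14 and 6 had p under 0.05 (1668 of the 11885 tested genes did), 0 were called by edgeR, DESeq2 or limma-voom, and 0.0337% of genes were called. Among libraries over 100 CPM of Y-linked RNA alone, 1 in each group, the log2 ratio of the S phase sums was 0.05, against 0.32 with all libraries, and that of the mitotic sums 0.03, against 0.23. In 14 S phase and 6 mitotic members all 3 labelled libraries lay above all 3 wild-type libraries, against 11.4% of tested genes. Tyms was at 31.4, 34 and 26.3 CPM against 22.7, 16.9 and 17.8 CPM in wild type (0.67 ± 0.20, adjusted p = 0.279), Ccne1 at 19.2, 19.9 and 17.8 against 16, 10.2 and 12.3 CPM (0.55 ± 0.17, adjusted p = 0.279), Cdk1 at 95.8, 102 and 82.2 against 82.9, 60.8 and 60.9 CPM (0.45 ± 0.15, adjusted p = 0.286) and Mcm2 at 76.3, 67 and 70.8 against 65.9, 46 and 39.5 CPM (0.50 ± 0.20, adjusted p = 0.309). Ccne2 went the other way, with all 3 labelled libraries at 24.5, 27.7 and 25.6 CPM below the wild-type 32, 36.9 and 33.6 CPM (-0.39 ± 0.15, adjusted p = 0.302). With GM-CSF the medians against wild type were 0.10 and 0.11, 0 members were called by the 3 tools, 0 had p under 0.05 and 0.0337% of genes were called. Both CSF2ra-/- and labelled Irf5-/- comparisons use the same wild-type libraries.

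Tested for any difference among the 8 groups, 9 S phase and 7 mitotic members were called by edgeR, where 12.3% of tested genes were. The S phase members were Mcm3, Mcm5, Mcm6, Mcm7, Cdt1, Rrm2, Tyms, Tk1 and Dut, and the mitotic members Cdk1, Ccnb2, Aurka, Plk1, Birc5, Cdc20 and Cenpa. Cenpa had the smallest adjusted p at 7e-04, then Cdc20 at 0.00218 and Mcm7 at 0.00318. DESeq2 called 18 and 12. Leaving out CSF2ra-/- GM-CSF replicate 2 left 5 S phase calls, and leaving out wild-type untreated replicate 1, or replicate 3 of either CSF2ra-/- group, gave 17. The share of all genes called by DESeq2 or in these fits is not given here.

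Further genes of replication and mitosis, from lists set beside the members with earlier results of these data known, were also called higher. In untreated CSF2ra-/-, 10.8% of tested genes were called and 5.52% called higher. Of 38 further replication genes, 21 rose and 0 fell in untreated CSF2ra-/- (median log2 fold change 0.48), led by Tipin, a fork protection factor (0.71 ± 0.13), the replication inhibitor Gmnn (0.61 ± 0.13), Rpa3 (0.63 ± 0.14), a subunit of the single-strand binding complex, the chromatin assembly subunit Chaf1a (0.78 ± 0.18) and the clamp loader Rfc5 (0.70 ± 0.17). Of 54 further mitotic genes, 22 rose and 0 fell (median 0.45), led by Tacc3 (0.76 ± 0.14) and Ube2c (0.73 ± 0.14), a spindle protein and the ubiquitin-conjugating enzyme of anaphase, then Cdca8 (0.70 ± 0.14), Stmn1 (0.97 ± 0.20) and Cdca3 (0.67 ± 0.14). With GM-CSF, where 3.79% of tested genes were called and 1695 of 11885 had p under 0.05, 0 replication genes (15 at p under 0.05) and 3 mitotic genes (25 at p under 0.05), Cdc25b (0.49 ± 0.10), Gtse1 (0.51 ± 0.13) and Incenp (0.40 ± 0.11), were called, all higher. In RefSeq windows the E2F letters occurred in 58.8% of those of the further replication genes and the CHR letters in 65.3% of those of the further mitotic genes.

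Of 21 genes of the E2F, RB and MYB-MuvB factors, listed together with Myc and Mycn, 4 rose in untreated CSF2ra-/- and 0 fell. The background was 10.8% of tested genes called and 5.52% called higher. E2f4, an E2F that mostly represses, was at 57.6, 53.4 and 52 CPM in wild type and 79.8, 74.2 and 67.2 CPM in CSF2ra-/- (0.44 ± 0.10, adjusted p = 0.00945). E2f1, an activator of S phase genes, was at 56.3, 53.9 and 57.4 CPM against 76, 65.6 and 79.9 CPM (0.40 ± 0.11, adjusted p = 0.0196). Mybl2, which acts with MuvB on mitotic genes, rose by 0.73 ± 0.19 and Mycn, at 0.748 to 3.93 CPM over all libraries, by 1.03 ± 0.31. Myc was at 68.3, 54.6 and 49.1 CPM against 71.1, 66.5 and 84.7 CPM and did not pass (0.37 ± 0.14, adjusted p = 0.0861).

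Of 15 listed G1 genes (cyclins, kinases, kinase inhibitors, the phosphatase gene Cdc25a and Skp2), 14 were tested. In untreated CSF2ra-/- 2 rose (Cdk2 by 0.36 ± 0.11 and Cdc25a by 0.53 ± 0.17) and 1 fell, where 10.8% of tested genes were called. That was Ccnd1, a D-type cyclin of G1, at 14.8, 15.4 and 13.5 CPM in wild type and 4.44, 2.89 and 2.66 CPM in CSF2ra-/- (-2.18 ± 0.35, adjusted p = 0.000765). With GM-CSF it was at 10.1, 5.65 and 12.2 CPM against 3.35, 3.54 and 3.18 CPM (-1.46 ± 0.35, adjusted p = 0.0166). In both treatments every CSF2ra-/- library was below every wild-type library, the opposite direction to the members. Untreated libraries labelled Irf5-/- were also below untreated wild type, at 3.2, 9.16 and 8.63 CPM. This did not pass (-0.99 ± 0.33, adjusted p = 0.285 in edgeR). With GM-CSF they were at 14.7, 7.78 and 5.74 CPM, overlapping wild type (0.02 ± 0.32). Markers of monocytes and macrophages were lower in CSF2ra-/- than in wild type, 9 of 14 called lower untreated. Whether Ccnd1 RNA came from such cells was not tested.

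Ccnd2, another D-type cyclin, rose with GM-CSF in 3 settings. It was at 35.3, 28.7 and 33.3 CPM in untreated wild type and 59.1, 54.3 and 45.2 CPM with GM-CSF (0.70 ± 0.11, adjusted p = 0.00107). It rose with IL-10 present (33.3, 34.7 and 32 to 54.6, 50.3 and 60.5 CPM, 0.73 ± 0.11, adjusted p = 0.000389) and in libraries labelled Irf5-/- (35.7, 30.1 and 34.4 to 54.8, 49.8 and 55.3 CPM, 0.68 ± 0.11, adjusted p = 0.00261). In CSF2ra-/- the untreated libraries were at 37.4, 39.8 and 35.8 CPM, those given GM-CSF at 41.3, 38.9 and 40.8 CPM (0.10 ± 0.11, adjusted p = 0.999). The interaction for CSF2ra-/- was -0.60 ± 0.15 and did not pass over all genes (adjusted p = 0.263 in edgeR), while in the GM-CSF groups Ccnd2 was lower in CSF2ra-/- than in wild type (-0.39 ± 0.10, adjusted p = 0.0351). Ccnd3, at 555 to 767 CPM, was called in none of the comparisons.

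Among the kinase inhibitors, Cdkn1a, which encodes p21, was at 482, 583 and 638 CPM in untreated wild type and 367, 346 and 845 CPM in untreated CSF2ra-/- (-0.13 ± 0.34, adjusted p = 0.836). With GM-CSF the CSF2ra-/- libraries were at 335, 368 and 837 CPM. In both treatments the library with the high Cdkn1a was replicate 3, the library of the group with the lowest S phase sum. Such a level was not particular to these libraries: wild-type replicate 2 with both cytokines was at 832 CPM. Cdkn1b, which encodes p27, was at 242, 321 and 343 CPM in untreated wild type and 173, 163 and 260 CPM in untreated CSF2ra-/- (-0.60 ± 0.21, adjusted p = 0.0674), and with GM-CSF CSF2ra-/- replicate 3 again had the highest value of its group, 259 CPM against 164 and 165 CPM. In wild type Cdkn1b was at 183 to 257 CPM in the 6 libraries high in Y-linked RNA and 302 to 343 CPM in the 6 low ones. All CSF2ra-/- libraries were high in Y-linked RNA. Untreated wild-type replicate 1, also high in it, lay within the range of untreated CSF2ra-/-. The part of what goes with Y-linked RNA in the Cdkn1b difference was not tested.

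**Figure D5:**
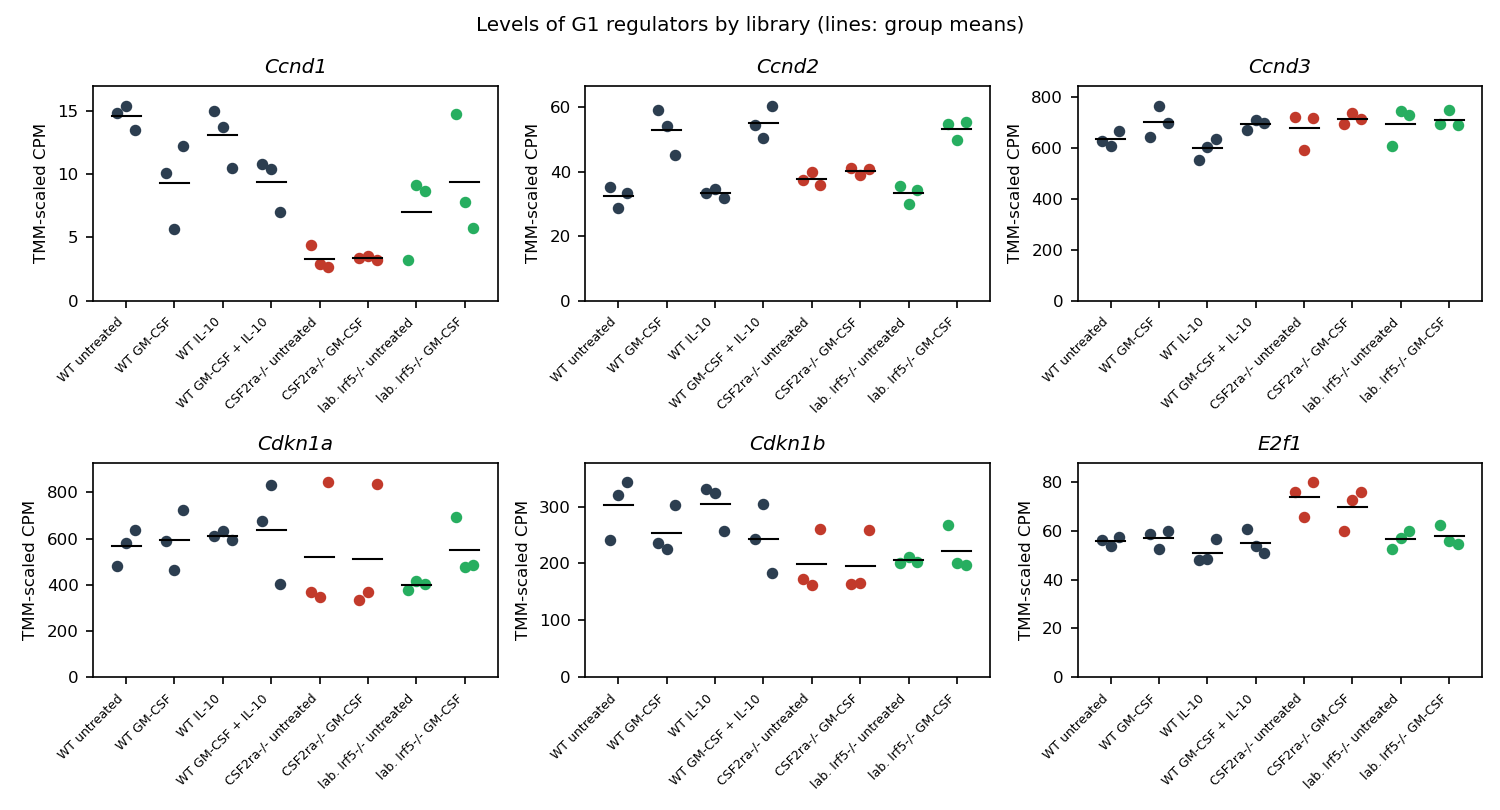
Level of 6 G1 regulators in TMM-scaled CPM (linear axes from 0) in each library of the 8 groups, wild type dark, CSF2ra-/- red and labelled Irf5-/- green, with group means as lines. Ccnd1 is low in all 6 CSF2ra-/- libraries and in the first untreated library labelled Irf5-/-. Ccnd2 is high in the GM-CSF groups other than CSF2ra-/-. Cdkn1a is high in the third library of both CSF2ra-/- groups, and about as high in the second wild-type library with both cytokines.

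Other cell types' markers were also called in the untreated CSF2ra-/- comparison, where 10.8% of tested genes were called in either direction. The 1 of 10 progenitor markers called lies near that share. Of the 14 monocyte and macrophage markers 9 were called lower, with a summed level of 2074 to 2660 CPM in CSF2ra-/- and 2365 to 2519 CPM in wild type, and of the 10 neutrophil markers 5 were lower (1317 to 1640 against 1699 to 1949 CPM). Of 9 erythroid markers 4 were tested and 2, Hbb-bs and Hbb-bt, were higher (64.8 to 134 against 29.1 to 37.2 CPM), with Hba-a2 and Car1 at 0 in all 24 libraries. Of 10 progenitor markers 1, Myb, was called higher (0.42 ± 0.12), but 6 of the 10 had negative log2 fold changes and the median was -0.20. The list summed to 980 to 1485 CPM against 903 to 1063 CPM, so the sum and the median differed in sign. Of 10 mast cell and basophil markers 7 were tested and 2, Cpa3 and Hdc, were higher (684 to 908 against 490 to 631 CPM), with Mcpt4 and Tpsab1 at 0 in all libraries. Of the 6 megakaryocyte markers 1 was higher and 3 lower (1375 to 1610 against 1127 to 1180 CPM). Among the 10 eosinophil markers, Epx (0.34 ± 0.10) and Prg3 (0.46 ± 0.13) were higher, and Ccr3 (-0.71 ± 0.18) and Alox15 (-0.61 ± 0.12) lower. Of 8 dendritic cell markers 7 were tested and 3 were lower (91.1 to 188 against 340 to 378 CPM). The part of these cell types in the members' values was not tested.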

How the data were processed

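Poly(A)-selected RNA was read from TruSeq stranded mRNA libraries, per the labels' protocols. The authors deposited 1 table of raw read counts per gene for each library, per the file headers, and the submitters' processing notes name STAR, featureCounts and GRCm38.p6. Versions and the strand setting of the counting are not given in the sources; without strand, reads of overlapping antisense genes may be shared.

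Ensembl identifiers were mapped to symbols, positions and exon lengths with GENCODE M21 on GRCm38. Genes without a symbol there numbered 34 (0.0189% of counts). Levels are CPM scaled by TMM (factors 0.939 to 1.031). All 24 libraries (6222979 to 18709153 counts) were fitted together in edgeR 4.0.16 (R 4.3.3) by quasi-likelihood after filterByExpr, which kept 11885 genes, with 1 mean per group, 16 residual degrees of freedom and a common biological coefficient of variation of 14.1%. The 13 comparisons and 1 test over all groups were adjusted by Benjamini-Hochberg over all genes tested, with a threshold of 0.05. Alternatives were DESeq2 1.42.0, limma-voom (limma 3.58.1), RLE size factors, no filter, a filter of 1 CPM in 12 libraries, the groups compared alone, the Y-linked level as a covariate, and leaving out each library. A subset by Y-linked level and leaving out libraries for the summed levels were added after seeing the data. The code was tested on simulated data.

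Members given in full were those called with the smallest adjusted p (at most 10), the 4 highest per kilobase in each phase and a set list of 10, and others are given by counts and ranges. The genes and lists were chosen with earlier results of these data known. Promoter windows are from RefSeq on GRCm38.p6.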

Additional observations from a re-analysis of the deposited data

How the results depend on the processing

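Alternatives left 545 of 588 counts and summed levels within 1.5 times or 1 SD of their value, and 43 moved. In most comparisons no member was called, and counts of 0 that stayed at 0 are among the 545. This share therefore does not measure how stable the calls were. For untreated CSF2ra-/- against wild type, the 17 S phase calls became 0 with only the groups compared and 0 in libraries over 100 CPM of Y-linked RNA, and 3 to 22 when 1 library was left out. The 12 mitotic calls became 0, 0 and 5 to 20, and 7 with the Y-linked covariate. With GM-CSF, the 1 S phase call became 0 under each of these 3 settings and 0 to 3 with 1 library left out, and the 0 mitotic calls became 3 in DESeq2 and 0 to 3. For untreated libraries labelled Irf5-/-, 0 S phase calls became 2 with only the groups compared. Over all groups, 9 S phase calls became 18 in DESeq2, 0 in the Y-linked subset and 5 to 17 with 1 library left out, and 7 mitotic calls became 12, 0 and 6 to 12. Where the share of all genes called is not given for a setting, its counts have no background.

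In the Y-linked subset, which leaves untreated wild type with 1 library assumed to vary like the other groups, log2 ratios of S phase sums to untreated wild type became 0.34 for untreated CSF2ra-/- (from 0.60), 0.30 with GM-CSF (0.56), and 0.05 and -0.06 for libraries labelled Irf5-/- (0.32 and 0.31). Mitotic sums became -0.10 for wild type with GM-CSF (0.09), 0.25 and 0.18 for CSF2ra-/- (0.52 and 0.44), and 0.03 and -0.20 for libraries labelled Irf5-/- (0.23 and 0.20). Ccne1 in CSF2ra-/- with GM-CSF (0.03) became 0 with the Y-linked covariate, -0.06 in the subset and -0.05 to 0.17 with 1 library left out. Apart from changes made by fewer libraries, the cause was not tested. Another 1478 values were log2 fold changes of single genes and list medians, and the medians carry no call. Of the single-gene values, 252 lost their call, 12 gained one and 5 turned sign, and 9 medians moved. Replicates of unstated origin and depth limit small differences: the least-read value was 53 counts. No paired fit was run, as the labels state no pairing of libraries between groups. Numbers in order of deposit and sample numbers in the titles were not used as pairs, even where libraries were alike. Whether a paired fit would change the calls, those for GM-CSF included, was not tested.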
